A study of Mus musculus with 18 samples.

Results

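The genes of cholesterol and fatty acid synthesis were followed in mouse embryonic stem cells in which the deubiquitinase BAP1 was deleted, replaced by its C91A form, or deleted together with RNF2. The set held 30 genes, chosen by name and matched by mouse Entrez identifier to the deposited tables, of 36528 genes listed. It was made of 7 enzymes of the mevalonate arm, 3 enzymes that make squalene and lanosterol, 8 enzymes between lanosterol and cholesterol, 5 genes of SREBP control, the sterol carrier Stard4, and 6 genes of fatty acid synthesis. Polyadenylated RNA was sequenced from 18 libraries in 6 groups of 3, all at day 4. The groups were BAP1 wild type cells (WT_D4), a BAP1 knockout line without and with 4-hydroxytamoxifen (cKO_D4 and cKO_D4_4OHT), a BAP1 C91A knock-in line without and with it (C91A_D4 and C91A_D4_4OHT), and an RNF2-BAP1 double knockout with it (dKO_D4_4OHT). The drug in that last group rests on the sample labels, since the series' design text writes its name without the drug suffix. The drug was given at 100 nM to switch on Cre recombination, and every group, controls included, also received the caspase inhibitor emricasan. The untreated lines lacked the drug and active Cre as well as the recombined allele, so each effect below is that of allele, drug and recombination together. The double knockout had no untreated group of its own line among the samples used here, and the labels state neither how that line was derived nor whether the wild type received the drug.

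BAP1 takes ubiquitin off histone H2A, while the ligase RNF2 puts it on. In C91A the catalytic cysteine of BAP1 is replaced by alanine. Cholesterol is built from acetyl-CoA through mevalonate, squalene and lanosterol, and fatty acids are built from the same precursor by the enzymes that begin with ATP citrate lyase. Both routes are controlled by the SREBP transcription factors, which leave the endoplasmic reticulum with the escort protein SCAP when sterols are low and are held back by the INSIG proteins when sterols are high. SREBPs bind sterol regulatory elements in the promoters of these genes, often beside CCAAT boxes bound by NF-Y.

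The promoters of 6 members that carry the contrasts below are shown as 250 bases up to the transcript start, from RefSeq on GRCm38.p6, each 5′ to 3′ on the strand of its gene. They were picked for the following reasons. Hmgcs1 held the only match, among members with a window, to the form of the sterol regulatory element sought here. Mvd was among the members that fell most in the double knockout. Insig1 changed in opposite directions with the 2 BAP1 alleles. Hsd17b7, Ebp and Elovl6 fell with both alleles but were higher in the double knockout than in the knockout. Capitals mark TCACNCCAC (the form of the sterol regulatory element sought) and CCAAT, on either strand.
Hmgcs1, chr13:119690101-119690350, plus strand: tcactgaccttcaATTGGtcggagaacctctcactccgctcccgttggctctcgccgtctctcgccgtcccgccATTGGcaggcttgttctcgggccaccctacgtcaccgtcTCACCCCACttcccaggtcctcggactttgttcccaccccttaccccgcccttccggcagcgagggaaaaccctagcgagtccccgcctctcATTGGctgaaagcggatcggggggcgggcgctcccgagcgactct
Mvd, chr8:122443423-122443672, minus strand: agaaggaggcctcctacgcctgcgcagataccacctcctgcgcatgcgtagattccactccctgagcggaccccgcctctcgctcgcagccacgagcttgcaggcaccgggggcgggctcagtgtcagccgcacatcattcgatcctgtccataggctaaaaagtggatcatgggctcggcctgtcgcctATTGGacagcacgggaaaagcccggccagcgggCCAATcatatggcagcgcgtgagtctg
Hsd17b7, chr1:169969206-169969455, minus strand: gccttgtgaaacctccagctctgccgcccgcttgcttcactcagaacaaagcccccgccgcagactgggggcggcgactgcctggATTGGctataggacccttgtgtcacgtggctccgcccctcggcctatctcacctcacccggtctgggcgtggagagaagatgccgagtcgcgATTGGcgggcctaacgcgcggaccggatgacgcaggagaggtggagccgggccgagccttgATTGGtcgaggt
Ebp, chrX:8193513-8193762, minus strand: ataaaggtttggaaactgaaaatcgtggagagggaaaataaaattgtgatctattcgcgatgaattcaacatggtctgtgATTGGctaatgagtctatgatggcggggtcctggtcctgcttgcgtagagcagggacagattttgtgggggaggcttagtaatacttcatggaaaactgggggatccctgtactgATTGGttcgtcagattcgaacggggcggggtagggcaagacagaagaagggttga
Insig1, chr5:28071162-28071411, plus strand: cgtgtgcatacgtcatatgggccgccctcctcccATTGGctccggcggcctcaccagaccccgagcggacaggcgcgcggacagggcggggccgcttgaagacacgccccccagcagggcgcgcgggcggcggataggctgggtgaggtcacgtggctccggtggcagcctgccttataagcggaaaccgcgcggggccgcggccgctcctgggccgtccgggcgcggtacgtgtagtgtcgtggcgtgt
Elovl6, chr3:129532136-129532385, plus strand: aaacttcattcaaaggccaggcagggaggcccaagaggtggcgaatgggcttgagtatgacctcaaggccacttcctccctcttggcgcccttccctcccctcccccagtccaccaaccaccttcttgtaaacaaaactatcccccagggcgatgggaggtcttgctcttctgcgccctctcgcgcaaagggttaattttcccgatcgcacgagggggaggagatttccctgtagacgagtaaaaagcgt

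The RefSeq table held 32 windows of 300 bases, reaching 50 bases past the start, for 24 of the 30 members. The 6 without a window were Fdps, Fdft1, Sqle, Stard4, Scd1 and Scd2. The element TCACNCCAC occurred in 1 of these windows, at 137 bases before the start of Hmgcs1, and in 1.24% of all 32851 windows of the same length. CCAAT occurred in 21 of the 32 windows and in 20 of the 24 genes, against 37.4% of all windows and 41.1% of all genes. GGGCGG, the core of GC boxes, occurred in 20 of the 24 genes against 38.2% of all genes, and the E-box CACGTG in 5 against 8.09%. All were sought on both strands and matches could overlap. The Elovl6 window matched none of these motifs. Shares were not compared at matched base composition. Other forms of the sterol regulatory element were not sought, so a missing match does not show a missing element. These matches describe letters only.

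Libraries held 8.11 to 23.04 megacounts, and the shallowest was a BAP1 knockout library. Replicates varied little, with a coefficient of variation of 4.47% between libraries of a group after counting noise. The labels do not say whether replicates were separate cultures, so all p-values measure only the spread between these libraries. Bap1 stood at a mean of 178 CPM (counts per megacount of the library) in wild type, 169 in the untreated knockout line, 150 in the BAP1 knockout, 88.8 in the untreated C91A line, 165 in the C91A mutant and 153 in the double knockout. Rnf2 stood at 74.5 CPM in the double knockout and at 103 to 123 in the other groups, and reads over a whole gene check a deleted exon only in part. All 9 embryonic stem cell markers were expressed, and their summed level was 2753.9 to 4477.9 CPM, lowest in the C91A mutant. Nanog had its lowest mean in wild type, Tdgf1 and Utf1 in the BAP1 knockout, and the others in the C91A mutant. The summed level of 10 fibroblast (feeder) markers was 89.2 to 91.3 CPM in the double knockout and 27.8 to 65.9 CPM elsewhere. Col1a1 and Col1a2 averaged 35.6 and 25.7 CPM in the double knockout. Of those 10, Lum and Twist2 stayed below 1 CPM in every library. Col1a1, Col3a1, Twist1, Pdgfra and Postn had their highest mean in the double knockout. Thy1 was highest in wild type (13.2 CPM against 7.53 in the double knockout), Col1a2 in the C91A mutant (26.4 CPM) and Dcn in the BAP1 knockout (1.78 CPM). The summed levels of 8 trophoblast and 10 endoderm markers were highest in the C91A mutant, at 1190.1 to 1299.7 and 1057.1 to 1155.3 CPM. Krt18, Krt8 and Sparc carried these sums. The endoderm markers Gata4, Gata6, Sox17, Foxa2 and Cubn had their highest mean in the double knockout, Dab2 in the C91A mutant and Amn in wild type. Gata4 averaged 23.0 CPM in the double knockout against 6.69 in the C91A mutant, and Cubn 24.6 against 2.71. Afp stayed below 1 CPM and Ttr at 0 in every library. The trophoblast marker Gata3 was also highest in the C91A mutant. Hand1, Tfap2c and Elf5 were highest in the untreated C91A line, Eomes in wild type and Cdx2 in the double knockout. The sums of 6 neural and 6 mesoderm markers were highest in the C91A mutant too, at 165.0 to 177.3 and 9.1 to 10.3 CPM. Of these markers only Nes and Kdr had their highest mean there. The part of these shifts in the results on lipid genes was not tested.

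All 30 members were expressed and passed the filter on low counts. Per length, in the authors' size-factor-adjusted RPKM, the median over the 18 libraries was highest for Acly (135), Scd2 (119), Srebf2 (114), Mvd (95.9) and Insig1 (89.4). It was lowest for Acaca (4.41), Hsd17b7 (4.09) and Idi1 (0.823). Levels within a gene are given below in CPM, which is not corrected for length.

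The double knockout held the lowest transcript level of the pathway. Summed over the 30 genes, the level was 6402, 6447 and 6169 CPM in the wild type libraries and 3882, 4092 and 4045 CPM in the double knockout, or 63.2% ± 1.7 of the wild type mean (SD, n = 3). The other groups lay between these, at 89.6% ± 0.64 in the untreated knockout line, 86.1% ± 0.89 in the BAP1 knockout, 86.6% ± 1.3 in the untreated C91A line and 77.4% ± 0.77 in the C91A mutant. No double knockout library reached any library of another group in this sum.

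**Figure D1:**
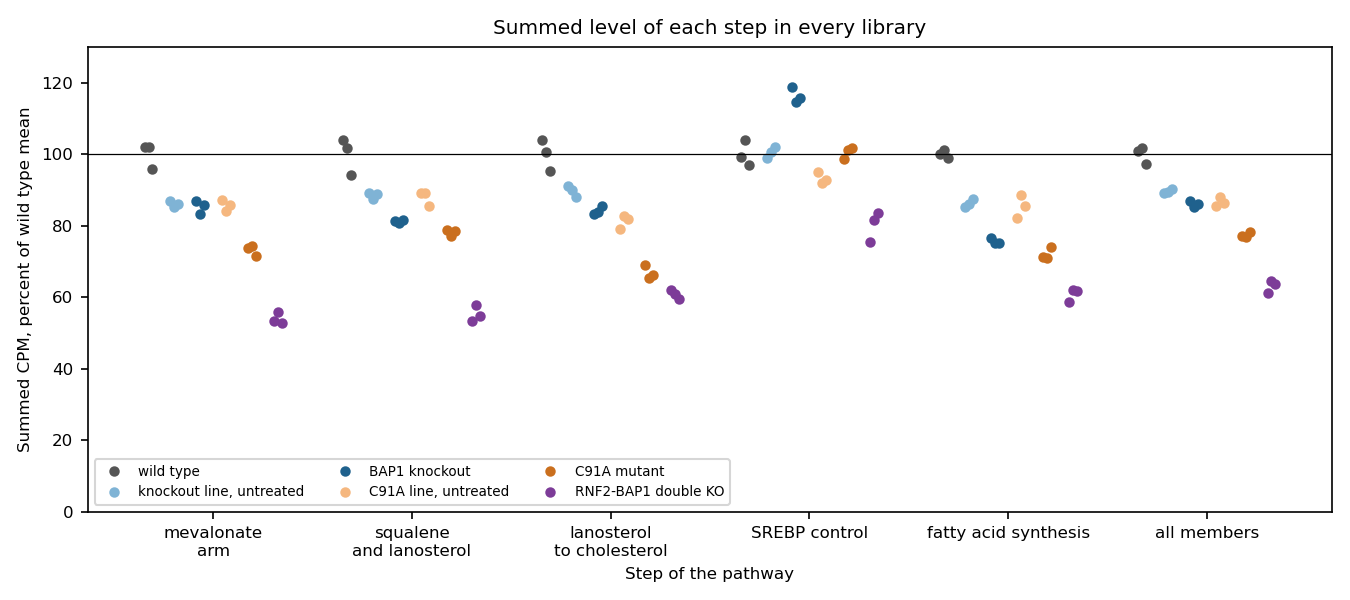
Summed CPM of the genes of each step, as percent of the wild type mean (y axis), for 5 steps and for all 30 members (x axis); each point is a library, coloured by group. Double knockout libraries lie at 53.4 to 57.8% for squalene and lanosterol and at 75.5 to 83.5% for SREBP control, and the BAP1 knockout lies above wild type in SREBP control alone, at 114.6 to 118.7%.

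The fall was seen at every step but was not of equal size. In the double knockout the mevalonate enzymes summed to 54.1% ± 1.7 of wild type, the squalene and lanosterol enzymes to 55.3% ± 2.3, the enzymes from lanosterol to cholesterol to 60.8% ± 1.3, and fatty acid synthesis to 60.8% ± 1.8 (SD, n = 3 each). The SREBP control genes summed to 80.2% ± 4.2. The same control genes summed to 116.4% ± 2.1 of wild type in the BAP1 knockout, against 100.5% in its untreated line. The enzyme steps of that untreated line were already below wild type. From untreated line to knockout the mevalonate sum went from 86.1% to 85.3% and that of squalene and lanosterol from 88.6% to 81.3%. The sum from lanosterol to cholesterol went from 89.7% to 84.2% and that of fatty acid synthesis from 86.2% to 75.6%. Sums in CPM weigh abundant genes most, so Fasn, Acly and Scd2 carry much of the fatty acid value.

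Gene by gene, the mean of the double knockout was the lowest of the 6 groups for 24 of the 30 members, and for 17.4% of all genes tested. For 16 members all 3 double knockout libraries lay below all 15 others, as they did for 6.26% of all genes. The 6 members whose lowest group was another were Mvk, Hsd17b7, Ebp, Scap, Fasn and Elovl6. Wild type was the highest group for 13 members, and for 13.4% of all genes.

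**Figure D2:**
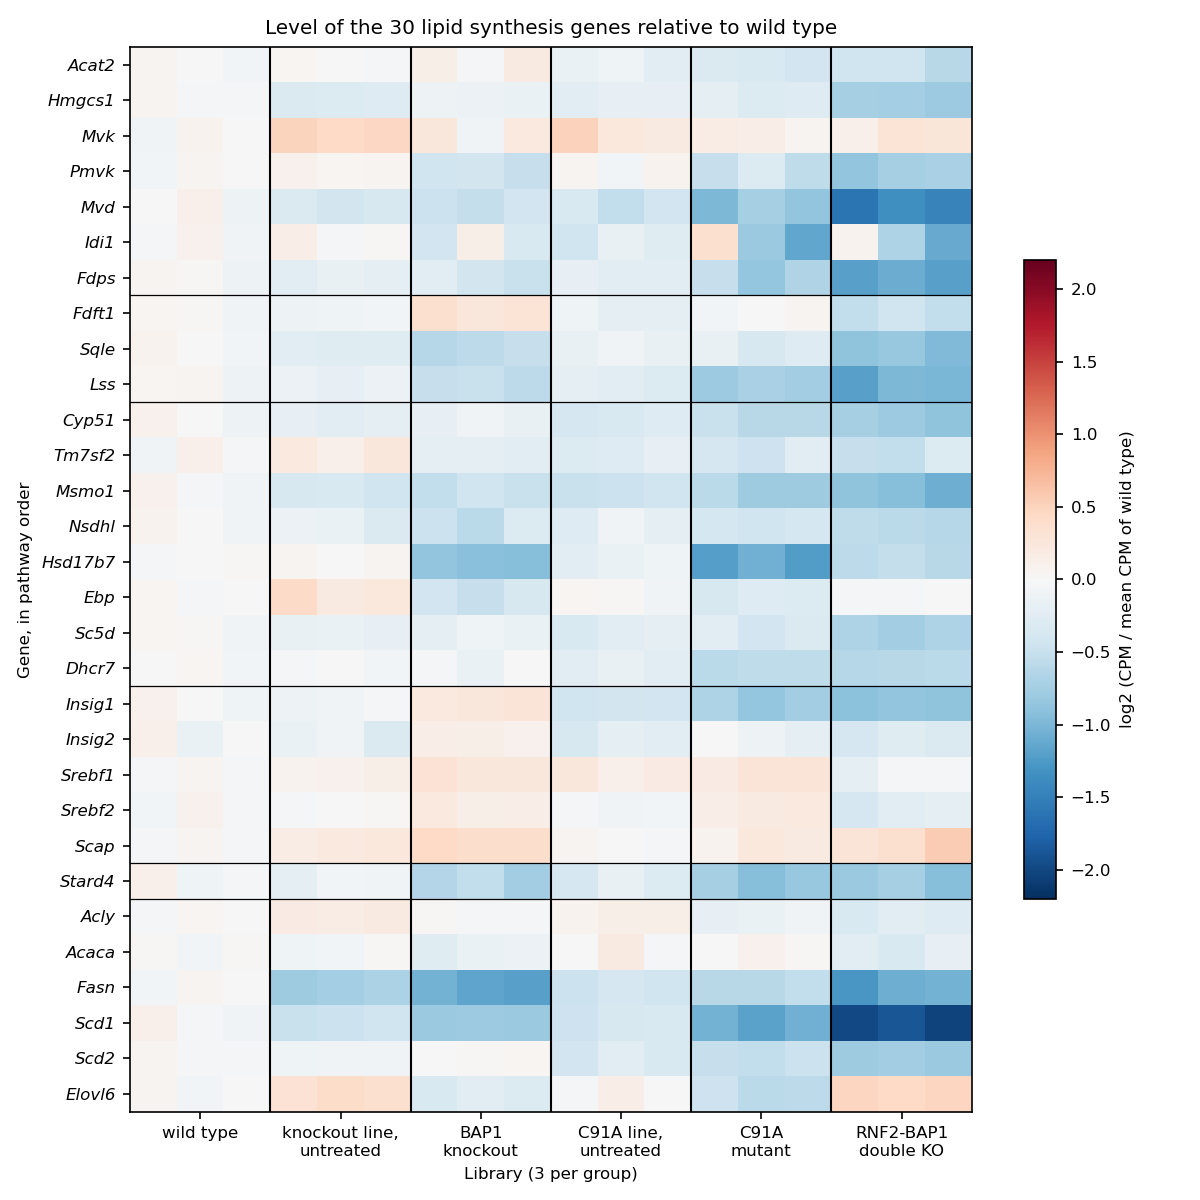
Level of each member (rows, in pathway order, with lines between steps) in each library (columns, 3 per group), as log2 of CPM over the wild type mean. The double knockout columns are blue for most rows, most for Scd1 and Mvd, while Elovl6 is blue in the BAP1 knockout and C91A mutant and red in the double knockout.

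The first comparison asked what changed when BAP1 was lost from the knockout line. Of the 24 sterol and fatty acid enzymes 12 fell, 3 rose and 9 did not pass the test, while all 5 genes of SREBP control rose. Of the 30 members 13 fell and 8 rose, where 30.3% of all 16875 genes tested fell and 31.3% rose at an adjusted p under 0.05. The median log2 fold change was -0.15 over the members and -0.006 over all genes. The share that fell was above the background, and the share that rose was near it.

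In the mevalonate arm the response was split. Pmvk, the phosphomevalonate kinase, stood at 70.6, 68.5 and 68.7 CPM in the untreated line and at 49.0, 50.2 and 46.5 CPM in the knockout, a log2 fold change of -0.52 ± 0.064 (SE) with an adjusted p of 3.5e-09. Its 2 groups did not overlap. Mvk, the kinase of the step before, fell by 0.31, and Hmgcs1, which makes HMG-CoA, rose by 0.17. Acat2, Mvd, Idi1 and Fdps did not pass, at 0.11, -0.12, -0.29 and -0.17. Mvd was called with only the 2 groups in the fit (-0.14), without the filter on low counts (-0.14) and at equal depth (-0.15). Fdps was called without BAP1 knockout replicate 1 (-0.25) and Acat2 without replicate 2 (0.16).

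Of the 3 genes of squalene and lanosterol, the epoxidase Sqle fell by 0.31 and the lanosterol synthase Lss by 0.38 on the log2 scale. Fdft1, the squalene synthase, went the other way. Its level was 106, 107 and 109 CPM in the untreated line and 146, 136 and 141 CPM in the knockout, a log2 fold change of 0.39 ± 0.049 (SE) with an adjusted p of 4.8e-09. The exons of Fdft1 overlap those of the cathepsin gene Ctsb on the opposite strand over 774 bases, 18.3% of the Fdft1 exon bases, and the sources used here do not say whether counting used strand. Ctsb rose by 0.97 in the same comparison, from a mean of 365 to 714 CPM. Its part in the Fdft1 value was not tested.

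Between lanosterol and cholesterol 4 of 8 enzymes fell and none rose. Hsd17b7, a sterol ketone reductase, fell most of all members. It stood at 26.3, 25.5 and 26.1 CPM in the untreated line and at 13.8, 13.3 and 13.2 CPM in the knockout, a log2 fold change of -0.95 ± 0.084 (SE) with an adjusted p of 5.6e-13. The knockout libraries all lay below every untreated library. Ebp, the sterol isomerase, stood at 32.3, 27.7 and 28.6 CPM untreated and at 18.2, 17.0 and 18.9 CPM in the knockout, a log2 fold change of -0.70 ± 0.08 (SE) with an adjusted p of 5.6e-10, again without overlap. Tm7sf2, a sterol reductase, fell by 0.41 and Nsdhl, a sterol dehydrogenase, by 0.23. Cyp51, Msmo1, Sc5d and Dhcr7 did not pass, at 0.07, -0.11, 0.01 and -0.03. Msmo1 was called without replicate 3 of the untreated knockout line (-0.14), with only the 2 groups in the fit (-0.14) and without the filter on low counts (-0.13).

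All 5 genes of SREBP control rose. Insig1, which retains the SREBP escort in the endoplasmic reticulum and is itself an SREBP target, stood at 271, 276 and 283 CPM in the untreated line and at 341, 350 and 355 CPM in the knockout. The log2 fold change was 0.33 (SE 0.045; adjusted p = 3e-08), and the groups did not overlap. Insig2 rose by 0.29, Scap by 0.19, and the 2 SREBP genes Srebf1 and Srebf2 by 0.17 each. The changes other than those of the INSIG genes were below 0.2 on the log2 scale. Stard4, which carries sterols between membranes, went down with the enzymes, from 44.5, 48.8 and 48.4 CPM to 32.6, 35.2 and 30.1 CPM. Its log2 fold change was -0.55 (SE 0.076; adjusted p = 4.9e-08).

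In fatty acid synthesis 4 of 6 genes fell and 1 rose. Elovl6, which lengthens palmitate, stood at 202, 216 and 208 CPM in the untreated line and at 129, 138 and 132 CPM in the knockout, a log2 fold change of -0.65 ± 0.049 (SE) with an adjusted p of 5.7e-15. The fatty acid synthase Fasn fell by 0.39, the stearoyl-CoA desaturase Scd1 by 0.35 and the ATP citrate lyase Acly by 0.20. Scd2, the related desaturase, rose by 0.11, and this call was lost without replicate 1 of the untreated line (0.10), without knockout replicate 3 (0.10) and without the filter on low counts (0.09). Acaca, the acetyl-CoA carboxylase, did not pass at -0.13, but was called with only the 2 groups in the fit (-0.15).

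The C91A comparison set the knock-in mutant, in which BAP1 is catalytically dead, against its own untreated line. That line had a lower starting level of Bap1 transcript, at 0.497 times wild type (log2 fold change -1.01), and the mutant stood 1.86 times above it (log2 fold change 0.90; edgeR adjusted p = 8.3e-19), so this comparison also spans a rise of Bap1 RNA that the knockout comparison does not have, and its part in the results was not tested. Most enzymes fell, with falls at every enzyme step of the pathway. Of the 30 members 20 fell and 3 rose, where 26.4% of all genes fell and 28.6% rose. The median log2 fold change was -0.21 over the members and -0.007 over all genes. Without C91A mutant replicate 3 only 1 member was called higher.

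In the mevalonate arm 5 of 7 genes fell and none rose. Pmvk stood at 69.3, 63.9 and 70.0 CPM in the untreated line and at 46.7, 54.0 and 45.0 CPM in the mutant, a log2 fold change of -0.48 ± 0.063 (SE) with an adjusted p of 1.7e-08. Mvd, which makes isopentenyl diphosphate, stood at 200.5, 173 and 189 CPM untreated and at 128, 152 and 139 CPM in the mutant, a log2 fold change of -0.42 ± 0.06 (SE) with an adjusted p of 1.1e-07. In both genes the groups did not overlap. Fdps, the farnesyl diphosphate synthase, fell by 0.45, and Acat2, the thiolase that joins acetyl-CoA units, by 0.21. Mvk fell by 0.19, a call lost with limma-voom (-0.18), without replicate 1 of the untreated line (-0.10) and without each of the mutant replicates in turn (-0.21 to -0.17). Hmgcs1 and Idi1 did not pass, at -0.07 and -0.16. Idi1 held 1.20 to 3.40 CPM in the mutant libraries and moved to -0.72, a call, without mutant replicate 1.

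Lss, which closes the sterol rings, was among the members that fell most. It stood at 159, 156 and 149 CPM in the untreated line and at 106, 113 and 108 CPM in the mutant, a log2 fold change of -0.51 ± 0.052 (SE) with an adjusted p of 3.9e-11. Sqle fell by 0.13, which was no call at equal depth (-0.12) or without replicate 2 of the mutant (-0.09) or of the untreated line (-0.10). Fdft1 rose by 0.17, and not as a call without mutant replicate 3 (0.13). Beside it Ctsb rose by 0.75.

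Between lanosterol and cholesterol 6 of 8 enzymes fell and none rose. Hsd17b7 again fell most, from 21.5, 22.7 and 23.5 CPM to 10.9, 12.1 and 10.7 CPM. Its log2 fold change was -1.01 (SE 0.084; adjusted p = 1.7e-13), with no overlap. Dhcr7, the last reductase before cholesterol, stood at 197, 208 and 195 CPM untreated and at 154, 159 and 158 CPM in the mutant. Its log2 fold change was -0.35 (SE 0.044; adjusted p = 6.7e-09), again with no overlap. Ebp fell by 0.31, the methylsterol oxidase Msmo1 by 0.25, the lanosterol demethylase Cyp51 by 0.23 and Nsdhl by 0.22. The Nsdhl call was lost without replicate 2 of the untreated line (-0.16). Tm7sf2 and Sc5d did not pass, at -0.10 and -0.08.

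SREBP control did not move as a block in the C91A mutant. Insig1 fell, from 216, 221 and 219 CPM in the untreated line to 184, 162 and 171 CPM in the mutant, a log2 fold change of -0.35 ± 0.046 (SE) with an adjusted p of 2.7e-08. Srebf2 rose by 0.24 and Scap by 0.17. The Scap call was lost at equal depth (0.12), without mutant replicate 2 (0.14) or 3 (0.14) and without replicate 3 of the untreated line (0.15). Insig2 and Srebf1 did not pass, at 0.15 and 0.07. Stard4 fell from 39.8, 45.6 and 41.6 CPM to 30.8, 26.9 and 28.8 CPM, a log2 fold change of -0.56 ± 0.075 (SE) with an adjusted p of 3.1e-08.

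In fatty acid synthesis 5 of 6 genes fell. Scd1 stood at 202, 218 and 219 CPM in the untreated line and at 134, 123 and 133 CPM in the mutant, a log2 fold change of -0.71 ± 0.05 (SE) with an adjusted p of 9.2e-16. Elovl6 stood at 159, 179 and 164 CPM untreated and at 118, 108 and 109 CPM in the mutant, a log2 fold change of -0.59 ± 0.049 (SE) with an adjusted p of 1.8e-13. Neither gene had overlapping groups. Acly fell by 0.24, Scd2 by 0.17 and Fasn by 0.15, and Acaca did not pass at -0.02.

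The knockout and C91A comparisons share no library, and their calls can be set side by side. Of the 30 members 12 fell in both, against 19.3% of all genes tested, namely Mvk, Pmvk, Sqle, Lss, Nsdhl, Hsd17b7, Ebp, Stard4, Acly, Fasn, Scd1 and Elovl6. A further 3 rose in both, Fdft1, Srebf2 and Scap, against 20.9% of all genes. Without C91A mutant replicate 3, Fdft1 and Scap were no longer called in the mutant, at log2 fold changes of 0.13 and 0.145. Insig1 and Scd2 were called in opposite directions, against 2.22% of all genes. Another 6 fell in the C91A mutant without a call in the knockout, against 6.19% of all genes. In the knockout 1 (Tm7sf2) fell without a call in the mutant, against 9.55%. Hmgcs1, Insig2 and Srebf1 rose in the knockout without a call in the mutant. That class was not counted over all genes, so no result is read from it. Idi1, Sc5d and Acaca were called in neither, against 25.8%.

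**Figure D3:**
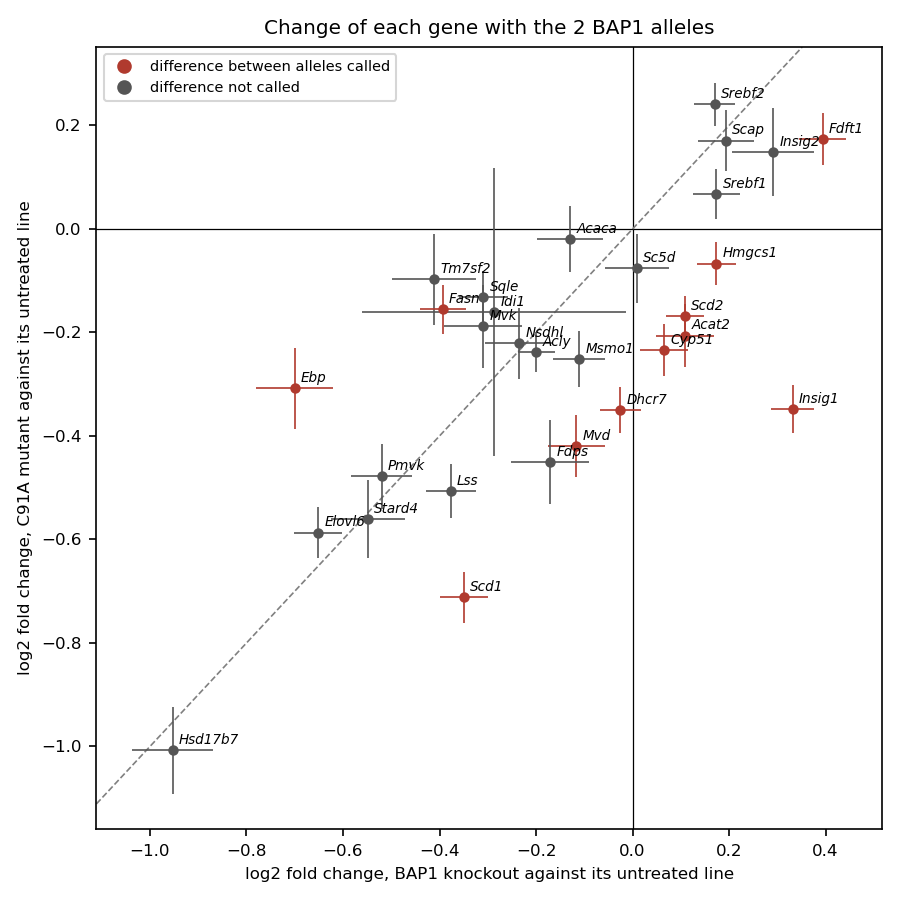
Log2 fold change of each member in the BAP1 knockout (x axis) and in the C91A mutant (y axis), each against its untreated line. Bars are standard errors and the dashed line marks equal change. Red marks the 11 members whose difference between these comparisons was called, which holds line as well as allele. Hsd17b7, Elovl6, Stard4 and Pmvk lie near the line, and Insig1 lies farthest below it.

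Whether the 2 effects differed was tested directly, as the knockout effect minus the C91A effect. The 2 alleles were in separate lines, so allele and line cannot be told apart in this difference. The untreated lines already differed, with Bap1 at a mean of 169 CPM in the knockout line and 88.8 CPM in the C91A line. Untreated Insig1 averaged 277 CPM in the knockout line and 219 CPM in the C91A line. The difference was positive, meaning less fall or more rise in the knockout, for 9 members, and negative for 2, where 12.2% and 13.8% of all genes were called in these directions. The median difference was 0.07 over the members and -0.011 over all genes. Only the groups of this test in the fit gave 4 negative calls, as did leaving out C91A mutant replicate 2.

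Insig1 had the largest difference of the members, 0.68 (SE 0.065; adjusted p = 9.5e-11), since it rose in all 3 knockout libraries over their line and fell in all 3 mutant libraries below theirs. Scd1 differed by 0.36 (SE 0.071; adjusted p = 0.00013), with a deeper fall in the mutant. Dhcr7 differed by 0.33 (SE 0.062; adjusted p = 8.9e-05). Its knockout libraries, at 227, 212 and 230 CPM, overlapped those of the untreated line, at 228, 231 and 223 CPM. Acat2 differed by 0.32 (SE 0.085; adjusted p = 0.0047). It stood at 75.1, 72.7 and 71.1 CPM in the untreated knockout line and at 79.8, 71.4 and 83.2 CPM in the knockout, which overlapped. In the C91A line it went from 65.6, 67.9 and 61.9 to 58.0, 57.7 and 54.2 CPM, which did not. Of the 50-base stretches of Acat2 transcripts 39.1% also occur in other genes, mostly Acat3, so its count is uncertain.

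Mvd, Cyp51, Scd2, Hmgcs1 and Fdft1 also differed in the positive direction, by 0.30, 0.30, 0.28, 0.24 and 0.22. The Fdft1 difference was no call at equal depth (0.20) or without replicate 1 of the untreated C91A line (0.19), of the knockout (0.20) or of the mutant (0.19). In the negative direction Ebp differed by -0.39 (SE 0.112; adjusted p = 0.0078), with the deeper fall in the knockout, and Fasn by -0.24. The other members did not pass the test, which does not show that the alleles act alike, and Hsd17b7, Pmvk, Stard4 and Elovl6 are among them.

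The double knockout was compared with the BAP1 knockout to ask what the added loss of RNF2 changed. The libraries of the knockout serve both this comparison and the first, so the 2 are not independent, and the sources do not say that both lines share an origin. Most members were lower. Of the 30 members 19 were lower and 3 higher, where 30.6% of all genes were lower and 32.6% higher. The median log2 fold change was -0.40 over the members and 0.034 over all genes. Of the 19 lower members, 5 had fallen in the knockout, 7 had risen there and 7 had no call there. This split was not counted over all genes, and both calls rest on the same knockout libraries. No result about the members is read from it, nor from the genes below whose 2 calls are set side by side. No called member lost its call under any alternative tried.

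**Figure D4:**
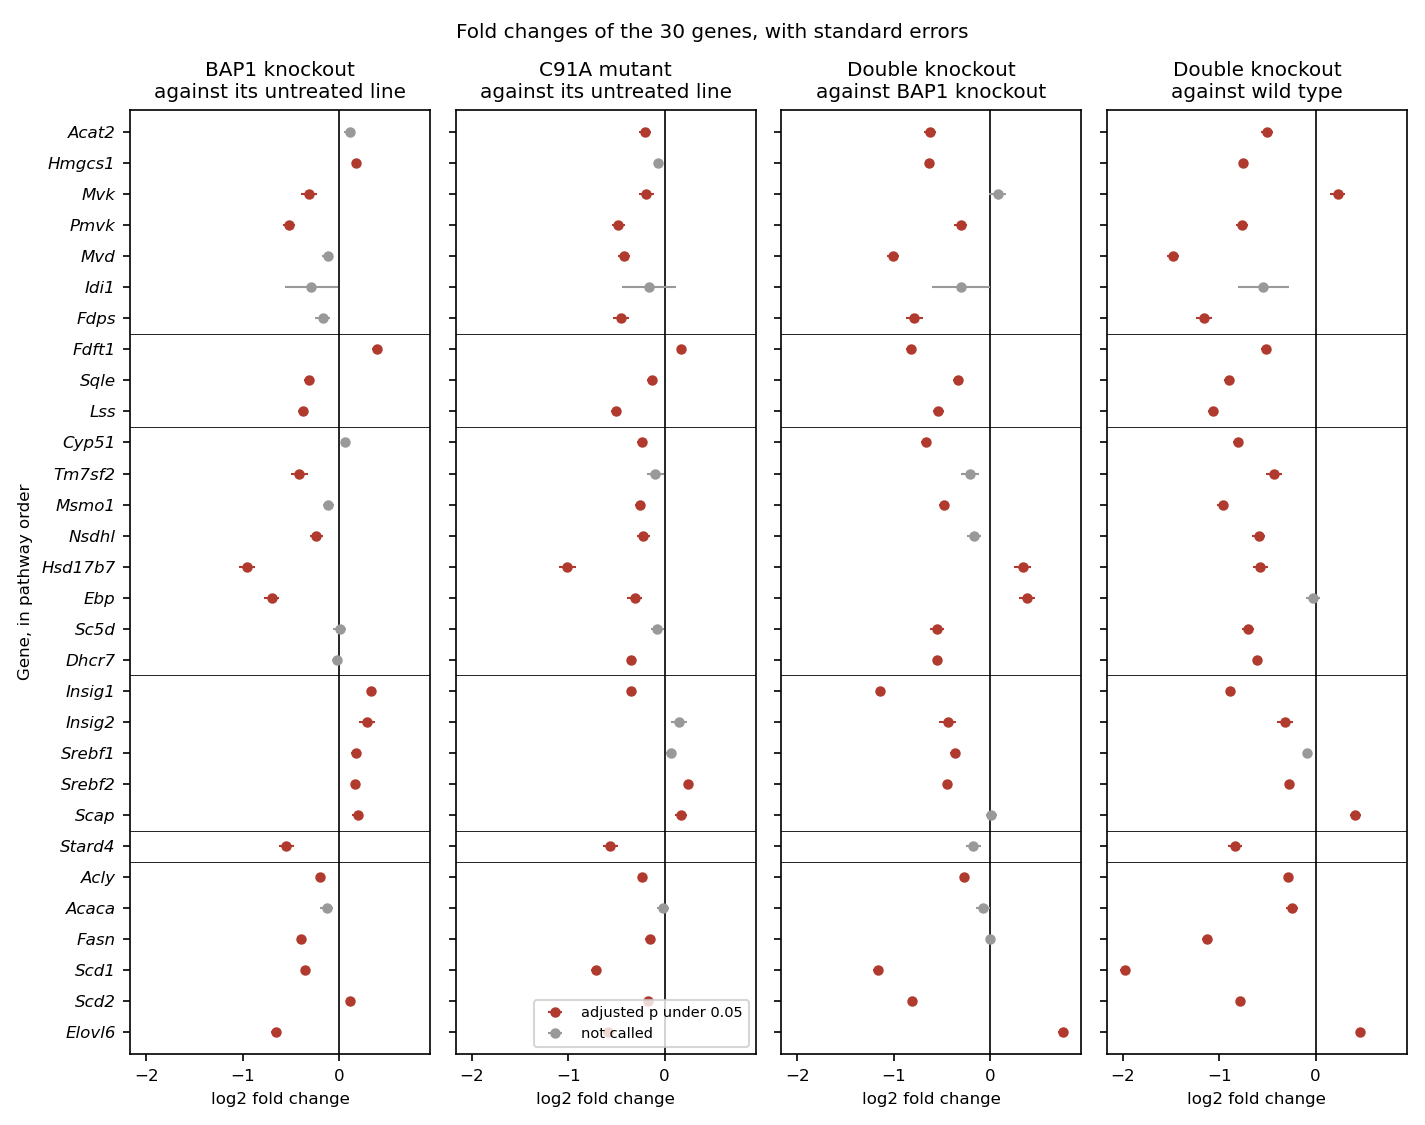
Log2 fold change with standard error (x axis) of the 30 members (y axis, in pathway order) in 4 comparisons; red points have an adjusted p under 0.05 and grey points do not. In the third panel 19 members lie to the left of 0 as calls and Hsd17b7, Ebp and Elovl6 to the right.

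In the mevalonate arm 5 of 7 genes were lower and none higher. Mvd stood at 182, 176 and 188 CPM in the knockout and at 82.9, 99.0 and 90.7 CPM in the double knockout, a log2 fold change of -1.01 ± 0.063 (SE) with an adjusted p of 1.3e-17. Fdps had a log2 fold change of -0.79, Hmgcs1 of -0.63, Acat2 of -0.62 and Pmvk of -0.31. For Acat2 the libraries were 53.5, 53.4 and 47.4 CPM in the double knockout, below all of the knockout. For Pmvk they were 36.5, 40.0 and 40.4 CPM, also below. Mvk and Idi1 did not pass, at 0.08 and -0.31.

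All 3 genes of squalene and lanosterol were lower. Fdft1 stood at 146, 136 and 141 CPM in the knockout and at 78.1, 83.8 and 78.4 CPM in the double knockout, a log2 fold change of -0.82 ± 0.051 (SE) with an adjusted p of 1.3e-17. Its neighbour Ctsb moved from a mean of 714 to 311 CPM, a log2 fold change of -1.20, and its part in the Fdft1 value was not tested. Lss was lower at a log2 fold change of -0.54 and Sqle at -0.34. The Lss libraries were 129, 131 and 124 CPM in the knockout and 80.3, 92.3 and 91.7 CPM in the double knockout, with no overlap.

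Between lanosterol and cholesterol 4 of 8 enzymes were lower and 2 higher. Cyp51 had a log2 fold change of -0.67, Sc5d, the sterol C5 desaturase, of -0.55, Dhcr7 of -0.55 and Msmo1 of -0.48. Dhcr7 stood at 151, 153 and 155 CPM in the double knockout, below all knockout libraries. The 2 genes that fell most after BAP1 loss at these steps moved the other way. Hsd17b7 stood at 16.9, 17.5 and 16.5 CPM in the double knockout, above the 13.2 to 13.8 CPM of the knockout, a log2 fold change of 0.34 ± 0.09 (SE) with an adjusted p of 0.0013. Ebp stood at 23.5, 23.8 and 24.0 CPM, above the 17.0 to 18.9 CPM of the knockout, a log2 fold change of 0.39 ± 0.083 (SE) with an adjusted p of 0.0001. Tm7sf2 and Nsdhl did not pass, at -0.20 and -0.17. Tm7sf2 was called without double knockout replicate 3 (-0.30). Nsdhl was called with the authors' size factors (-0.17), with limma-voom (-0.17) and without knockout replicate 2 (-0.22) or double knockout replicate 1 (-0.19).

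Of the SREBP control genes 4 of 5 were lower. Insig1 stood at 341, 350 and 355 CPM in the knockout and at 157, 160 and 158 CPM in the double knockout, a log2 fold change of -1.14 ± 0.047 (SE) with an adjusted p of 1.3e-23. Srebf2 had a log2 fold change of -0.45, Insig2 of -0.44 and Srebf1 of -0.36, and Scap did not pass at 0.01. Stard4 did not pass at -0.17, with 28.9, 30.8 and 26.7 CPM in the double knockout. It was called without double knockout replicate 2 (-0.22) or knockout replicate 3 (-0.24).

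In fatty acid synthesis the 2 desaturases were lower and the elongase was higher. Scd1 stood at 157, 159 and 157 CPM in the knockout and at 69.7, 75.1 and 67.1 CPM in the double knockout, a log2 fold change of -1.16 ± 0.054 (SE) with an adjusted p of 9.7e-22. Scd2 stood at 754, 772 and 784 CPM in the knockout and at 439, 448 and 430 CPM in the double knockout, a log2 fold change of -0.81 ± 0.041 (SE) with an adjusted p of 1.6e-20. The 2 desaturases share 4.6% and 4.0% of their 50-base stretches, mostly with each other. Elovl6 stood at 227, 220 and 225 CPM in the double knockout, above the 129 to 138 CPM of the knockout, a log2 fold change of 0.76 ± 0.049 (SE) with an adjusted p of 5.7e-17. Acly had a log2 fold change of -0.27. Fasn and Acaca did not pass, at 0.00 and -0.07.

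**Figure D5:**
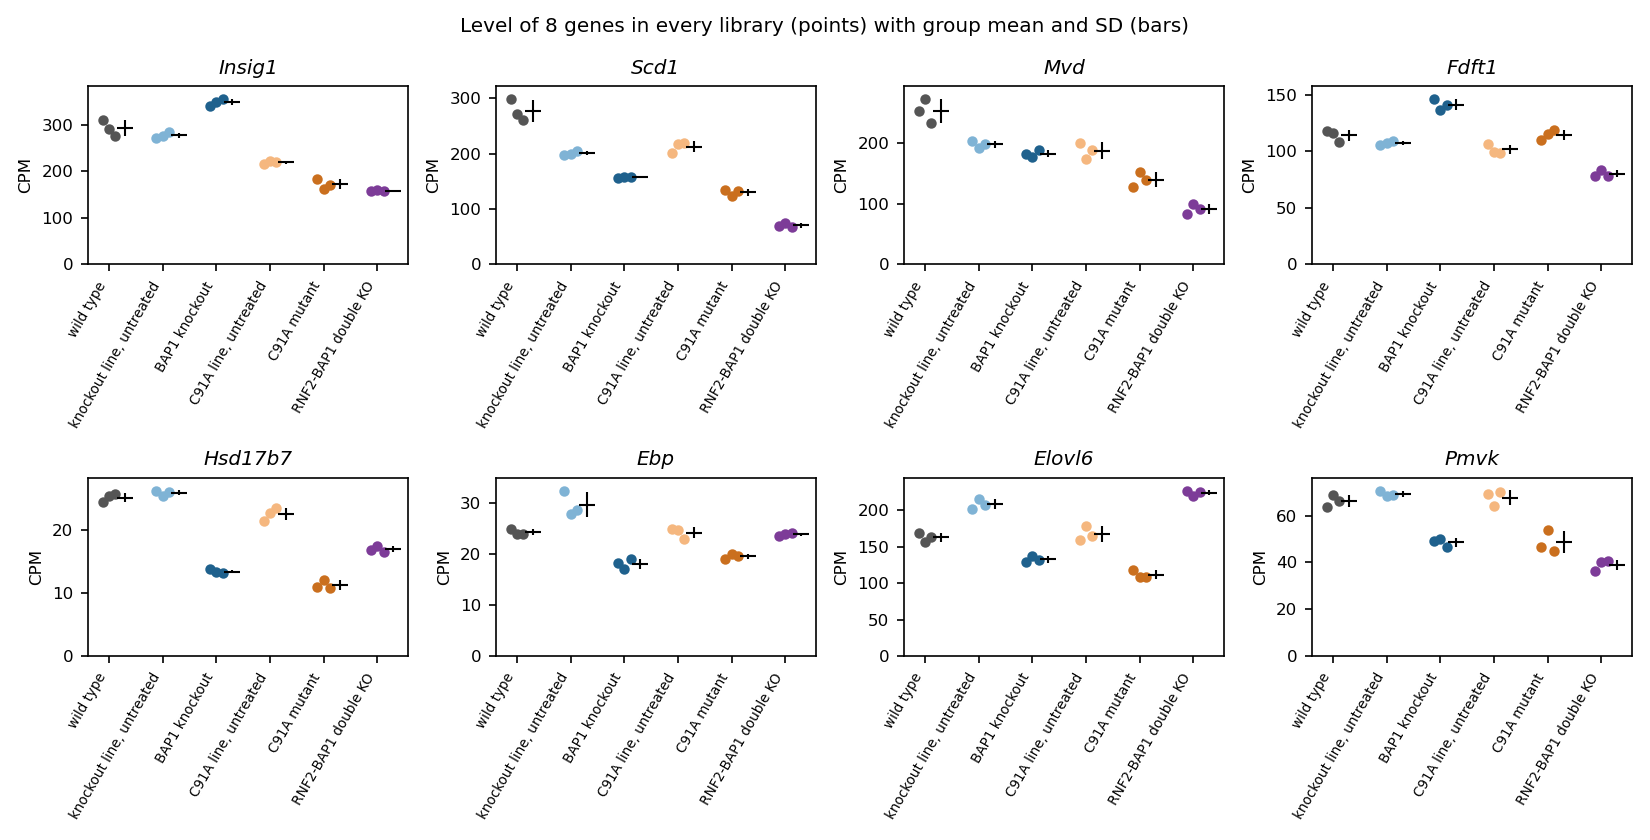
CPM of 8 members (y axes, from 0) in every library of the 6 groups (x axes), with the mean and SD of each group. Insig1, Scd1, Mvd, Fdft1 and Pmvk are lowest in the double knockout, Hsd17b7 and Ebp are lower in the BAP1 knockout and the C91A mutant than in the double knockout, and Elovl6 is highest in the double knockout.

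Against wild type the double knockout was lower in nearly the whole pathway. Of the 30 members 24 were lower and 3 higher, where 27.1% of all genes were lower and 26.2% higher. The median log2 fold change was -0.60 over the members and 0.006 over all genes. Wild type and the double knockout differ in line as well as in both alleles, and the labels state the drug only for the double knockout. Line, alleles, drug and Cre recombination cannot be told apart here.

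Scd1, which puts the double bond into stearate, showed the largest change of the members. It stood at 298, 271 and 261 CPM in wild type against 69.7, 75.1 and 67.1 CPM, a log2 fold change of -1.97 ± 0.052 (SE) with an adjusted p of 6.8e-30. Mvd followed, with 253, 272 and 233 CPM in wild type, a log2 fold change of -1.48 ± 0.061 (SE) with an adjusted p of 2.1e-23. The groups did not overlap in either gene. Fdps, Fasn and Lss had log2 fold changes of -1.16, -1.13 and -1.06. Msmo1, Sqle and Insig1 were lower at -0.97, -0.90 and -0.89.

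Stard4, Cyp51, Scd2, Pmvk, Hmgcs1 and Sc5d lay between -0.83 and -0.70, in that order. Dhcr7, Nsdhl, Hsd17b7, Fdft1 and Acat2 lay between -0.61 and -0.50. Tm7sf2, Insig2, Acly, Srebf2 and Acaca were lower by less, at -0.43, -0.32, -0.29, -0.28 and -0.25. The Insig2 call was lost at equal depth (-0.24). The 3 members that were higher were Elovl6 at 0.46, Scap at 0.41 and Mvk at 0.23. The Mvk call was lost without wild type replicate 1 (0.19) and without double knockout replicate 2 (0.20) or 3 (0.20). Srebf1 and Ebp did not pass, at -0.09 and -0.03. Idi1 did not pass at -0.54 and was called without the filter on low counts (-0.55), with limma-voom (-0.65) and without double knockout replicate 1 (-0.92).

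The untreated lines were also compared with wild type. In the untreated knockout line 11 members were lower than in wild type and 5 higher, where 20.8% of all genes were lower and 18.5% higher. The members with the largest change were Fasn, lower at a log2 fold change of -0.74, Scd1 at -0.46, Mvk, higher at 0.46, and Msmo1 at -0.38. At equal depth, and also without wild type replicate 1, 7 members were lower. In the untreated C91A line 19 members were lower and 3 higher, where 14.2% of all genes were lower and 13.4% higher. With libraries left out in turn 14 to 18 members were lower in this line, and 14 at equal depth. Here Msmo1 had a log2 fold change of -0.47, Mvd and Fasn of -0.43 each and Insig1 of -0.42. The 3 comparisons with wild type share its libraries, and the untreated lines also serve the allele comparisons, so these are not independent of each other.

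Some members share sequence with other genes. The counts are of uniquely aligned reads, so a stretch repeated at another site would lose reads, while exons overlapping at the same site could share them. Of the 50-base stretches of its annotated transcripts, 30.4% for Acaca, 26.5% for Fdft1, 26.2% for Fdps, 25.3% for Idi1, 11.6% for Hmgcs1, 10.0% for Scap and 9.9% for Tm7sf2 also occur in another annotated gene, and under 5% for the members not named here or above. Acat3, the partner of Acat2, had log2 fold changes of 0.18 in the knockout, 0.13 in the C91A mutant and -0.30 between double knockout and knockout.

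Genes beside the pathway were counted from a list of 65 lipid genes in 7 classes, of which 63 were tested. After BAP1 loss 19 rose and 25 fell, in the C91A mutant 18 rose and 20 fell, and between double knockout and knockout 20 were higher and 28 lower. The shares of all genes were 31.3% higher and 30.3% lower after BAP1 loss, and 28.6% and 26.4% in the C91A mutant. Between double knockout and knockout they were 32.6% and 30.6%. The counts of higher genes were therefore near the background, while those of lower genes were above it in each comparison, least in the C91A mutant. The median log2 fold changes of the 63 genes were -0.03, -0.04 and -0.01, nearer to those of all genes than the members were. In fatty acid supply, Mlxipl, the carbohydrate response factor ChREBP, had log2 fold changes of -1.96 in the knockout and -1.34 in the C91A mutant. Acacb, the carboxylase that restrains fatty acid oxidation, had -1.25 and -0.95, and Acss2, which makes acetyl-CoA from acetate, had -0.98 in the mutant.

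In the double knockout against the knockout, Dgat2, which makes triglyceride, stood at 24.5, 25.9 and 26.3 CPM against 7.38, 4.89 and 7.58 CPM, a log2 fold change of 1.90 ± 0.124 (SE) with an adjusted p of 6e-17. Abca1, the sterol exporter, had 1.42 and Acadl, a fatty acid dehydrogenase, -1.30. The change of Abca1 also differed between the knockout and C91A comparisons, by -1.09. Against wild type, Dgat2 and Abca1 were higher in the double knockout at 1.72 and 1.10.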

How the data were processed

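Alignment was to GRCm38 with GSNAP, per the submitters' processing notes, which give no version. Per the labels, libraries were made with TruSeq version 2 reagents from polyadenylated RNA and read as single reads of 50 bases. Per the file headers, the deposited files list Entrez genes with the count of uniquely aligned reads and a size-factor-adjusted RPKM computed by the authors from it. RPKM served for levels between genes and for the authors' size factors.

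From the counts, 16875 genes passed filterByExpr of edgeR 4.0.16 (R 4.3.3), were scaled by TMM and tested in 1 quasi-likelihood fit over all 18 libraries with 1 mean per group. Adjusted p-values are Benjamini-Hochberg over all genes tested, with a threshold of 0.05, and the standard error is the log2 fold change over the square root of F. The procedure was checked on simulated data. CPM are TMM-scaled counts per megacount. Alternatives were DESeq2 1.42.0, limma-voom (limma 3.58.1), RLE and the authors' factors, no filter on low counts, fits of only the groups compared, equal depth by thinning to 8106613 counts, and each library left out. Replicates were numbered in accession order.

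Values in every library are given for the 13 members that were among the 5 called members of largest change in the knockout, C91A, difference or double knockout against knockout comparison. Up to 3 other lipid genes per comparison were named by size of change. Some genes this rule picked are not reported here. The members and all lists were chosen with earlier results of these data known. Identifiers were named from RefSeq (31049 of 36528). Shared 50-base stretches and exon overlaps come from GENCODE M21.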

Additional observations from a re-analysis of the deposited data

Results flagged for a closer look

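For 11 members the effect of the BAP1 knockout and that of the C91A mutant, each against its untreated line, differed by the test of the difference itself. The difference, knockout effect minus C91A effect on the log2 scale, was largest for the SREBP regulator Insig1, at 0.679. Among the sterol enzymes it was 0.326 for Dhcr7, 0.316 for Acat2, 0.303 for Mvd, 0.3 for Cyp51, 0.241 for Hmgcs1 and 0.221 for Fdft1. The desaturases Scd1 and Scd2 differed by 0.363 and 0.278. The isomerase Ebp and the synthase Fasn differed in the other direction, by -0.392 and -0.238.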

How the results depend on the processing

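Of 2080 values of members and named genes under other settings, 2016 kept their direction and side of the threshold. None of 127 called values changed sign, and 9 lost their call under at least 1 setting, all given beside the results. Of 27 uncalled values, 9 changed sign under at least 1 setting. With libraries left out in turn, Acaca in C91A spanned -0.065 to 0.059, Idi1 in C91A -0.718 to 0.126, Dhcr7 and Sc5d in the knockout -0.049 to 0.011 and -0.008 to 0.041. Between double knockout and knockout Fasn spanned -0.046 to 0.068, Idi1 -0.691 to 0.000, Mvk -0.002 to 0.125 and Scap -0.079 to 0.067. Sc5d in the knockout was -0.012 without the filter on low counts and -0.016 with only the groups compared, Fasn was -0.001 with the authors' factors, and Ebp against wild type was 0.049 at equal depth. Counts of called members moved by over 1.5 times in 5 of 194 cases. Members higher in C91A spanned 1 to 3 with libraries left out. Those with a negative difference between the knockout and C91A effects spanned 2 to 4. Members lower in the untreated knockout line than in wild type spanned 7 to 12. With only the groups compared the negative differences were 4, and at equal depth 7 members were lower in that untreated line. The causes were not tested. No scaling or filter moved the median of all genes beyond 0.069. No paired analysis was possible because the labels give no replicate numbers. Depth limits Idi1, with group means of 1.90 to 2.75 CPM, most.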
